A study of Mus musculus with 9 samples.

Results

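The 10 genes described here are the enteroendocrine hormone genes *Chga*, *Chgb*, *Gcg*, *Pyy*, *Sst*, *Cck*, *Nts*, *Insl5*, *Tph1* and *Neurod1*, taken by gene symbol from the expression files of a mouse colon cancer study. All 10 symbols were found among the 21498 symbols in the files, and all 10 passed the filter on low values, as did 15278 genes in total. The study asked how an antibody against S100a9, an inflammatory protein of myeloid cells, affects the colorectum in colitis-associated cancer. RNA was sequenced from the colorectum of 3 mice in each of 3 groups, all male mice of the outbred ICR strain, 5 weeks old at the start and killed at the end of week 18. Control mice received neither azoxymethane (AOM), dextran sulfate sodium (DSS) nor antibody, and their tissue is labelled normal colorectal mucosa. IgG mice received 1 injection of 10 mg/kg AOM, a carcinogen, then 3 cycles of DSS, which injures the colonic epithelium, as a drink (2% over 7 days in cycle 1 and 1.5% over 5 days in cycles 2 and 3), and a negative control IgG antibody at 1.5 mg/kg every 2 days during the cycles. Anti-A9 mice received the same AOM and DSS with the anti-S100a9 antibody at the same dose and interval. Tissue of both AOM/DSS groups is labelled colorectal adenocarcinoma, so treatment and kind of tissue cannot be told apart wherever these groups are set against Control. The study reports fewer tumours with the anti-S100a9 antibody and speaks of the anti-A9 tissue as colon mucosa. How much tumour each sample held is not given. Antibody and tumour content therefore cannot be told apart between anti-A9 and IgG either.

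Enteroendocrine cells are rare hormone-secreting cells of the gut epithelium that sense the lumen and release peptides or serotonin from dense-core granules. In the colon, L cells make proglucagon (*Gcg*), peptide YY (*Pyy*) and insulin-like peptide 5 (*Insl5*), D cells make somatostatin (*Sst*), and enterochromaffin cells make serotonin through tryptophan hydroxylase (*Tph1*). Cholecystokinin (*Cck*) and neurotensin (*Nts*) are mainly hormones of the small intestine. Chromogranins A and B (*Chga*, *Chgb*) are granule proteins shared by these cells, and *Neurod1* is a transcription factor that acts downstream of *Neurog3* in their differentiation. Several of the genes are also active elsewhere: chromogranins and neuropeptides in enteric neurons, *Tph1* in mast cells. In whole tissue, fewer cells of a type and less RNA per cell cannot be told apart.

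All 10 genes matched a RefSeq promoter on GRCm38.p6, and the 250 bases before the annotated start were searched on both strands for 3 short motifs. These were the E-box CAGCTG, found in 13% of all 32851 promoter windows, the E-box CAGATG with its reverse complement CATCTG, found in 14.4%, and the cAMP response element TGACGTCA, found in 1.55%. CAGCTG lay in the windows of *Chga* and *Nts*, CAGATG in those of *Gcg*, *Cck* and *Insl5*, and TGACGTCA in those of *Chgb* and *Sst*. GENCODE M21 starts *Chgb* and *Sst* upstream of the start used here, so both TGACGTCA sites lay inside the gene in that annotation. The 3 L cell genes are shown because their ratios are compared further on, and *Chga* because it is the general marker of the lineage. Capitals mark the E-boxes, each sequence reads 5′ to 3′ on the strand of its gene, and bases inside the GENCODE M21 gene were left out. The windows are *Chga* at chr12:102554691-102554940 (plus strand), *Gcg* at chr2:62483654-62483903, *Pyy* at chr11:102107833-102108082 and *Insl5* at chr4:103026843-103026978 (all minus strand).
Chga: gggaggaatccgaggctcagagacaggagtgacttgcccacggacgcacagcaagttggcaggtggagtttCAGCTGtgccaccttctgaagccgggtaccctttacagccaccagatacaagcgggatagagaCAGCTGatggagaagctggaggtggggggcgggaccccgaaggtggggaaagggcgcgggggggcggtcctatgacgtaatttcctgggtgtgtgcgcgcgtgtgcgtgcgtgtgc
Gcg: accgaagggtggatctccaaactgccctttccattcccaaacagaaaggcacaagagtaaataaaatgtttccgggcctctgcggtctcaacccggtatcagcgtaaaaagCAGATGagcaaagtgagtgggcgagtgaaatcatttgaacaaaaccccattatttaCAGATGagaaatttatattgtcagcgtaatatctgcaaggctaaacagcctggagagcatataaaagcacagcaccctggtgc
Pyy: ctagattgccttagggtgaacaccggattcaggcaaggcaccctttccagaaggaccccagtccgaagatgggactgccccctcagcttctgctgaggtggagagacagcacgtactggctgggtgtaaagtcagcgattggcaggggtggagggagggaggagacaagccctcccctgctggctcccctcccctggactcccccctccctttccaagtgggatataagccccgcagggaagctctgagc
Insl5: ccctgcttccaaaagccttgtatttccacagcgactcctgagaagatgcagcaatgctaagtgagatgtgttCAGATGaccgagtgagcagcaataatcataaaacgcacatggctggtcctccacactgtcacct
The *Chga* motifs began -179 and -116 bases from the start, those of *Gcg* at -139 and -83, and that of *Insl5* at -178, and none overlapped another. *Pyy* shares its cell with *Gcg* and *Insl5* yet held none of the 3 motifs in this window, which says only that these letters are absent there.

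Expression is given in FPKM, a fragment count scaled by transcript length and by the size of the library, which can be compared between genes. The files hold no counts, so the depth behind each value is unknown and no counting interval is given. The summed FPKM per sample lay between 308377 and 408811. Epithelial markers were present in every sample (their sum lay between 4914 and 8784 FPKM), while the 5 pancreatic beta cell markers together never passed 0.49 FPKM. IgG replicate 1 stood apart from the other samples. It was the lowest of all 9 samples for 8 of the 10 genes, all except *Cck* and *Nts*, and it also had the lowest sum of epithelial markers. Values without it stand beside many of the results whose calls it changed.

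In the mucosa of untreated mice, L cell peptides had the highest levels. In Control, *Pyy* was at 130 ± 40.9 FPKM and *Insl5* at 129 ± 4.80 FPKM (mean ± SD, n = 3), and the values of these genes overlapped. *Chgb* followed at 68.9 ± 31.2 and *Chga* at 61.7 ± 30.3 FPKM, which overlapped each other, and the highest *Chgb* value (105 FPKM) passed the lowest *Pyy* value (103 FPKM). Next came *Sst* at 21.1 ± 9.78 and *Gcg* at 17.6 ± 3.35 FPKM, again with overlapping values. *Tph1* stood at 6.90 ± 2.44, *Neurod1* at 1.50 ± 0.162 and *Cck* at 0.595 ± 0.484 FPKM, and each was above the next in every Control sample. *Nts* was listed at 0.106, 0 and 0.0372 FPKM. The 10 genes together made up 375, 373 and 564 FPKM in Control, 52.1, 280 and 494 FPKM in IgG, and 186, 192 and 215 FPKM in anti-A9. The sums of the anti-A9 samples were therefore all below those of Control, and the IgG samples spanned from far below both groups to within the Control range.

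**Figure D1:**
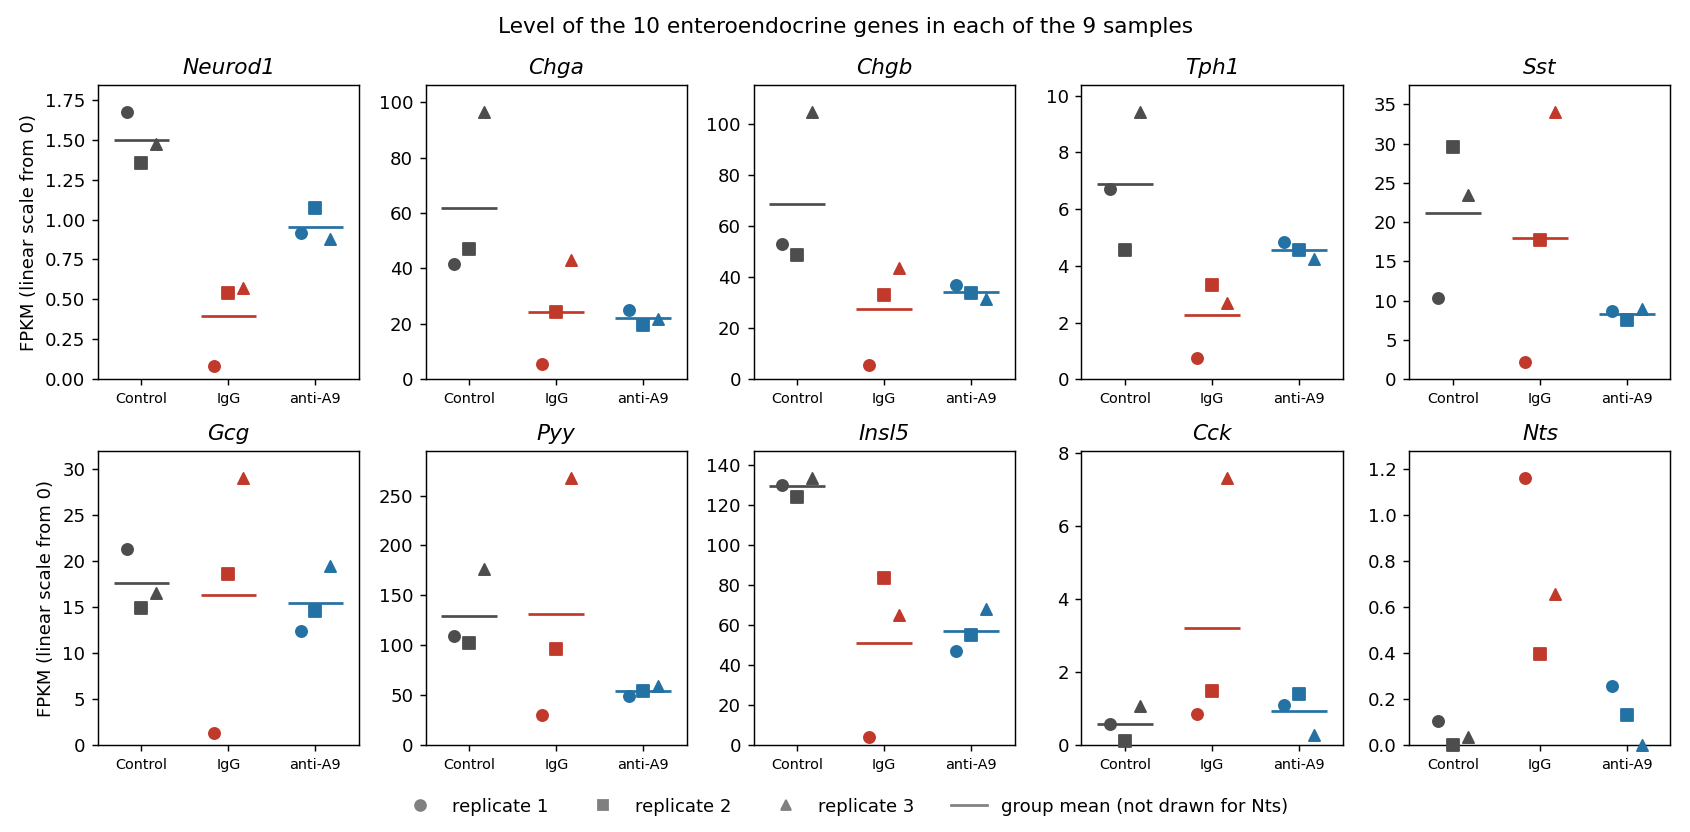
FPKM of each gene (vertical axes, linear from 0, a separate scale for each gene) in Control, IgG and anti-A9. Each point is 1 mouse, its shape gives the replicate number, and lines are group means. The circle of IgG replicate 1 is the lowest point in the panels of all genes except Cck and Nts, and the 3 anti-A9 points lie close together in most panels.

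The comparison of IgG with Control asks how the hormone genes differ between AOM/DSS tissue and normal mucosa. Of the 10 genes, 5 fell more than 2-fold: *Neurod1*, *Tph1*, *Chga*, *Chgb* and *Insl5*. *Nts* rose. *Gcg*, *Pyy*, *Sst* and *Cck* did not pass the test. A gene was called when its change in limma passed 2-fold on log2(FPKM + 0.1) and its p before adjustment was under 0.05. This scale understates the change of low genes. By this rule 5 of 10 genes were lower, against 5.19% of all genes tested, and 1 of 10 was higher, against 8.43%. At a Benjamini-Hochberg adjusted p under 0.05 over all 15278 genes, 2 of 10 passed (*Neurod1* and *Nts*), against 11.2% of all genes. With IgG replicate 1 left out, 2 of 10 were called as lower and 2 as higher, against 479 and 1079 of all 15129 genes tested. Every IgG sample was below every Control sample for 4 genes (*Chgb*, *Insl5*, *Tph1*, *Neurod1*; 10.2% of all genes) and above for *Nts* (20.7%).

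*Neurod1* carried the clearest fall among the genes that went down. It was at 1.67, 1.36 and 1.47 FPKM in Control, at 0.0813, 0.541 and 0.573 FPKM in IgG and at 0.914, 1.07 and 0.879 FPKM in anti-A9, listed in the order of replicates 1 to 3. The 3 groups did not overlap, and anti-A9 lay between the others. IgG minus Control was -1.90 ± 0.47 on the log2 scale (SE; 3.73-fold lower; adjusted p = 0.0351, limma), and without IgG replicate 1 it was -1.28 (adjusted p = 0.0136). The call held in 9 of 9 fits that left out 1 sample, with adjusted p from 0.0136 to 0.103. Of 10 fits of all samples or groups with other settings, 9 kept it, and that with a pseudocount of 1 did not. In the GENCODE M21 annotation *Neurod1* (chromosome 2, 79452521 to 79456751, minus strand) overlaps *Cerkl* (minus strand) and *Gm26755* (plus strand). Whether counting used the strand is not given in the sources used here, and strand could not part *Neurod1* from *Cerkl*. Reads of these genes may therefore not have been told apart. None of the other 9 genes overlapped an annotated gene.

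*Tph1*, the rate-limiting enzyme of serotonin synthesis outside the brain, behaved alike (chromosome 7, 46644641 to 46672537, minus strand, GRCm38). Its level was 6.71, 4.56 and 9.43 FPKM in Control, 0.756, 3.33 and 2.68 FPKM in IgG and 4.84, 4.56 and 4.26 FPKM in anti-A9. IgG lay below both other groups without overlap, while anti-A9 overlapped Control. IgG minus Control was -1.74 ± 0.49 (3.33-fold lower; adjusted p = 0.0529), or -1.12 without IgG replicate 1 (adjusted p = 0.0575), and the gene was called in 9 of 9 fits without 1 sample.

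The genes of the granule proteins, *Chga* (chromosome 12, 102554969 to 102565028, plus strand) and *Chgb* (chromosome 2, 132781278 to 132795079, plus strand), fell to the same extent. *Chga* was at 41.6, 46.9 and 96.5 FPKM in Control, 5.41, 24.4 and 43.0 FPKM in IgG and 24.8, 19.7 and 21.6 FPKM in anti-A9. *Chgb* was at 53.0, 48.8 and 105 FPKM, at 5.60, 33.2 and 43.5 FPKM and at 37.1, 33.7 and 31.5 FPKM in the same groups. For *Chga*, IgG replicate 3 reached into the Control range, whereas for *Chgb* IgG and Control did not overlap. Both were 3.20-fold lower in IgG than in Control (log2 -1.68 for each, with SE 0.66 and 0.67), with adjusted p of 0.13 and 0.135. Without IgG replicate 1 the values shrank to -0.82 and -0.77 and neither was called, and neither was called without Control replicate 3 (-1.30 and -1.33).

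*Insl5* (chromosome 4, 103017872 to 103026842, minus strand) had the largest fold change of the 10 genes in this direction and also one of the widest spreads. Control was tight at 130, 124 and 133 FPKM, IgG was at 3.99, 83.7 and 64.8 FPKM, and anti-A9 was at 46.9, 55.2 and 68.2 FPKM. Every sample of both AOM/DSS groups lay below every Control sample. IgG minus Control was -2.20 ± 0.95 (4.60-fold lower; adjusted p = 0.161). The call was close to its limit (unadjusted p = 0.0458, limma) and was kept in 2 of 9 fits without 1 sample. It was lost without any of the Control samples, without any of the anti-A9 samples (-2.20 in each of those 3) and without IgG replicate 1. In that last fit the change was -0.81, under the 2-fold limit, with adjusted p = 0.04.

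The other L cell peptides and somatostatin did not pass the test. *Gcg*, the precursor of glucagon-like peptides, was at 21.4, 14.9 and 16.6 FPKM in Control, 1.35, 18.7 and 29.1 FPKM in IgG and 12.4, 14.6 and 19.5 FPKM in anti-A9. *Pyy* was at 109, 103 and 177 FPKM, at 30.7, 96.7 and 268 FPKM and at 49.3, 54.5 and 59.6 FPKM. *Sst*, a broad inhibitor of hormone release, was at 10.4, 29.5 and 23.5 FPKM, at 2.24, 17.7 and 34.1 FPKM and at 8.70, 7.52 and 8.89 FPKM. For all 3 genes IgG held both the lowest and the highest value of the series. IgG minus Control was -0.92 ± 0.93 for *Gcg*, -0.44 ± 0.64 for *Pyy* and -0.79 ± 0.85 for *Sst*. The sign turned without IgG replicate 1, to 0.42, 0.36 and 0.35, with no call. Without IgG replicate 3, *Pyy* was called as lower (-1.20, adjusted p = 0.132).

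*Cck* and *Nts* (chromosome 10, 102481756 to 102490486, minus strand) went against the other 8 genes. *Nts* was listed at 0.106, 0 and 0.0372 FPKM in Control, 1.16, 0.394 and 0.655 FPKM in IgG and 0.259, 0.131 and 0 FPKM in anti-A9. IgG lay above both other groups without overlap, with its highest value in replicate 1, the sample in which 8 other genes were lowest. IgG minus Control was 2.46 ± 0.54 (adjusted p = 0.0237), and 2.11 without IgG replicate 1 (adjusted p = 0.0652), called in 9 of 9 fits without 1 sample. Of 9 fits with other settings, 8 called *Nts*, and that with a pseudocount of 1 did not. An exact 0 can be a failed estimate in files without counts. *Cck* was at 0.575, 0.122 and 1.09 FPKM in Control, 0.851, 1.50 and 7.33 FPKM in IgG and 1.12, 1.41 and 0.293 FPKM in anti-A9. Its difference of 1.99 ± 0.89 was not called (95% interval -0.02 to 4.01), though it was without IgG replicate 1 (2.61, adjusted p = 0.138), without Control replicate 3 (2.54) and without anti-A9 replicate 3.

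**Figure D2:**
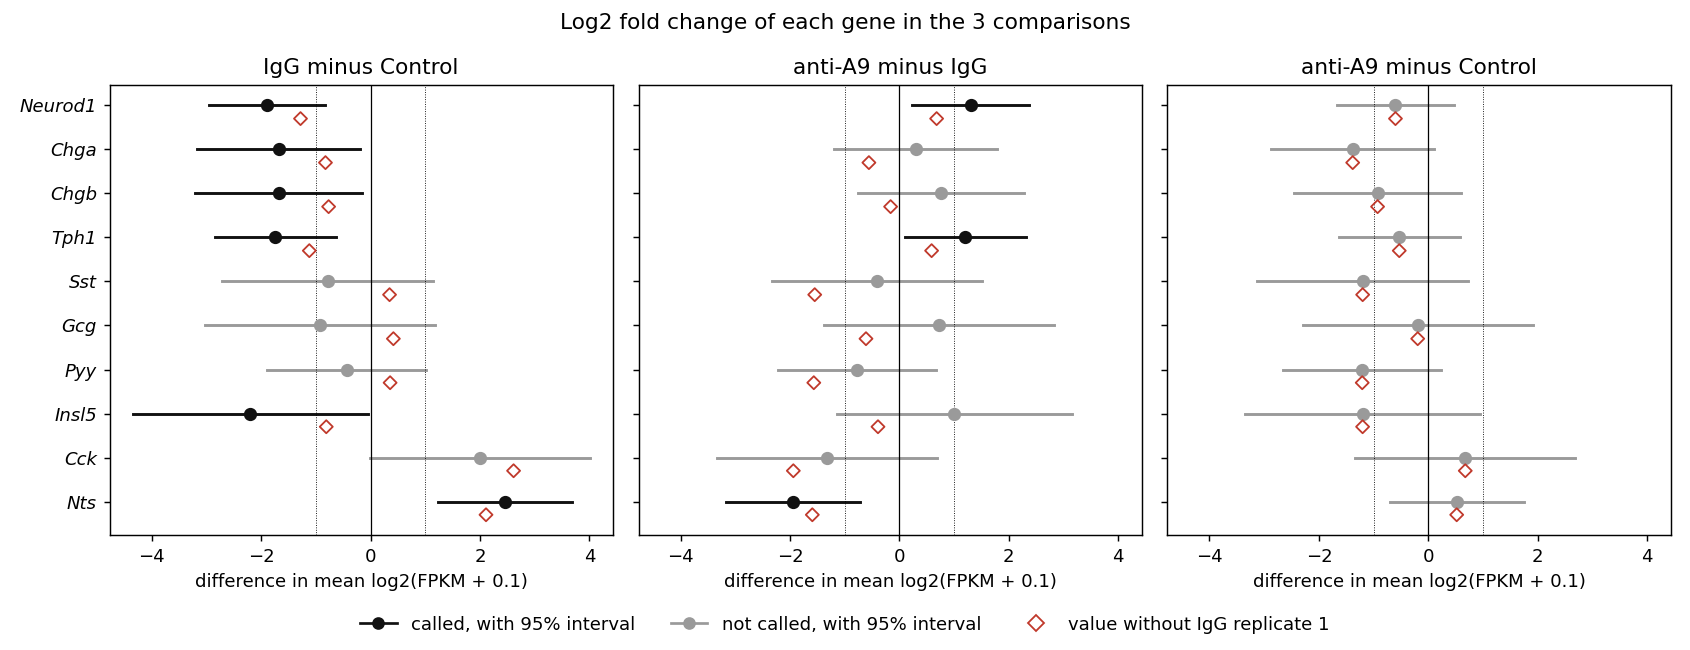
Difference between group means of log2(FPKM + 0.1) (horizontal axes) for each gene in the 3 comparisons, with 95% intervals from limma, black for called genes and grey for the others. Open diamonds give the value without IgG replicate 1, and dotted lines mark 2-fold. In IgG minus Control, the diamonds of Gcg, Pyy and Sst sit on the other side of 0 from their circles.

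The comparison of anti-A9 with IgG asks how the hormone genes differed with the anti-S100a9 antibody among AOM/DSS mice. *Neurod1* and *Tph1* rose and *Nts* fell. The other 7 genes, which include the chromogranins and every L cell peptide, were not called. Thus 2 of 10 were higher, against 7.64% of all genes tested, and 1 of 10 was lower, against 8.38%. With adjusted p under 0.05 only *Nts* passed, against 21.1% of all genes. With IgG replicate 1 left out, 0 of 10 were called as higher and 3 as lower (*Pyy*, *Sst* and *Nts*). Of all 15129 genes then tested, 857 were higher and 1071 lower. Anti-A9 lay above IgG without overlap for *Tph1* and *Neurod1* (18.5% of all genes) and below for *Nts* (28.5%). This comparison and that of IgG with Control share the IgG samples, so opposite signs in the pair are not independent.

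The rise was 1.30 ± 0.47 for *Neurod1* (2.46-fold; adjusted p = 0.0764) and 1.21 ± 0.49 for *Tph1* (2.31-fold; adjusted p = 0.104). Without IgG replicate 1 the values were 0.68 and 0.59 and neither gene was called. Neither was called without anti-A9 replicate 2 (1.22 and 1.20), and *Tph1* was also lost without anti-A9 replicate 1 (1.16) or 3 (1.25). *Nts* fell by 1.94 ± 0.54 on the log2 scale (adjusted p = 0.0369) and by 1.59 without IgG replicate 1 (adjusted p = 0.0977), called in 9 of 9 fits without 1 sample. With other settings *Nts* was called in 8 of 9 fits, and not with a pseudocount of 1. Its values in these groups were all at or under 1.16 FPKM.

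Among the uncalled genes, anti-A9 minus IgG was 0.29 ± 0.66 for *Chga*, 0.75 ± 0.67 for *Chgb*, 0.72 ± 0.93 for *Gcg* and 1.00 ± 0.95 for *Insl5*. It was -0.77 ± 0.64 for *Pyy*, -0.41 ± 0.85 for *Sst* and -1.32 ± 0.89 for *Cck*. IgG replicate 1 set the sign for 4 of these genes. Leaving it out gave -0.56 for *Chga*, -0.16 for *Chgb*, -0.61 for *Gcg* and -0.39 for *Insl5*, and *Pyy* (-1.57, adjusted p = 0.0509) and *Sst* (-1.55, adjusted p = 0.0604) were then called as lower in anti-A9. With IgG replicate 3 left out, *Sst* was at 0.39.

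Anti-A9 against Control asks how far the hormone genes of antibody-treated AOM/DSS mice lay from normal mucosa. No gene was called in either direction with limma, and 0 of 10 had an unadjusted p under 0.05. Over all genes 0.864% were lower, 2.28% were higher and 0.0131% (2 genes) passed the adjusted threshold. The sample values nevertheless separated for many of the genes. Every anti-A9 sample was below every Control sample for 6 of 10, *Chga*, *Chgb*, *Pyy*, *Sst*, *Insl5* and *Neurod1*, against 13.7% of all genes, and above for 0 of 10, against 17.3%. The same held for 5 of 9 goblet cell markers below and 0 above, and for 1 of 9 colonocyte markers below and 0 above. Of 17 transcription factors of the lineage, 6 lay below and 3 above.

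The differences were -1.38 ± 0.66 for *Chga*, -1.21 ± 0.64 for *Pyy*, -1.20 ± 0.95 for *Insl5*, -1.20 ± 0.85 for *Sst* and -0.93 ± 0.67 for *Chgb*. *Neurod1* was at -0.60 ± 0.47, *Tph1* at -0.53 ± 0.49, *Gcg* at -0.19 ± 0.93, *Cck* at 0.68 ± 0.89 and *Nts* at 0.52 ± 0.54. The standard errors come from the spread of all 9 samples, the IgG samples included. When the fit held only the anti-A9 and Control samples, *Chga*, *Insl5*, *Pyy* and *Sst* were called as lower, with adjusted p from 0.135 to 0.242. The same 4 genes were called when only IgG replicate 1 was left out (adjusted p from 0.102 to 0.223), and *Chga* and *Pyy* when IgG replicate 3 was. Over all genes tested, these fits called 165, 152 and 137 as lower, in that order. Of the L cell genes, the anti-A9 mean was 2.30-fold under Control for *Insl5* and 2.31-fold for *Pyy*, and 1.14-fold for *Gcg*.

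Spread within groups differed widely. Across the 8 genes other than *Cck* and *Nts*, the highest anti-A9 sample was 1.14 to 1.57 times the lowest, and the highest Control sample 1.08 to 2.84 times. In IgG this fold was 21.5 for *Gcg*, 21.0 for *Insl5*, 15.2 for *Sst*, 8.72 for *Pyy*, 7.94 for *Chga*, 7.77 for *Chgb*, 7.05 for *Neurod1* and 4.41 for *Tph1*.

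Ratios within a sample cancel any factor shared by the genes compared, and they separated the L cell peptides. *Insl5* to *Gcg* was 6.08, 8.32 and 8.05 in Control, 2.94, 4.49 and 2.23 in IgG and 3.78, 3.79 and 3.50 in anti-A9. Both AOM/DSS groups were below Control in every sample, and IgG replicate 1 lay inside the range of its own group. The differences were -1.26 for IgG and -1.01 for anti-A9 on the log2 scale (exact permutation test, two-sided, p = 0.1 for each, the smallest that 3 against 3 allows, and 0.18 after adjustment over the 9 comparisons of 3 ratios). *Pyy* to *Gcg* was 5.11, 6.90 and 10.7 in Control, 22.7, 5.19 and 9.21 in IgG and 3.98, 3.75 and 3.06 in anti-A9, so anti-A9 was below both other groups. *Insl5* to *Pyy* was 1.19, 1.21 and 0.756 in Control, 0.130, 0.865 and 0.242 in IgG and 0.950, 1.01 and 1.14 in anti-A9, where it overlapped Control and lay above every IgG sample.

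**Figure D3:**
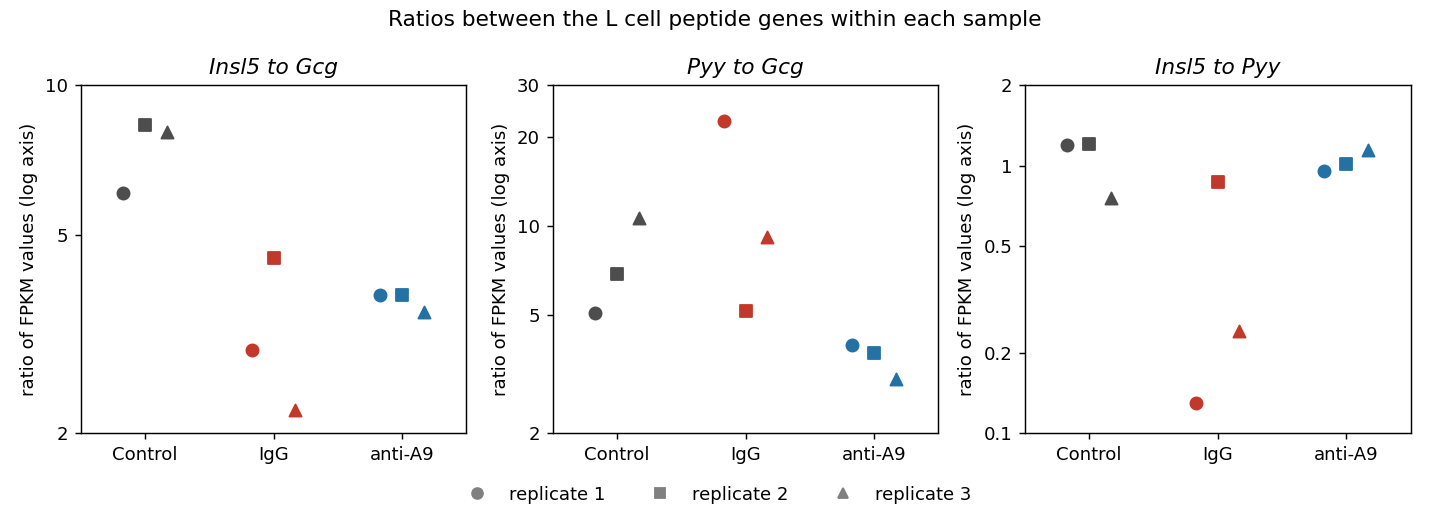
Ratio of FPKM values (log axes) between the L cell peptide genes in each sample, with Control, IgG and anti-A9 side by side and replicate numbers as shapes. Insl5 to Gcg lies between 6.08 and 8.32 in Control and between 2.23 and 4.49 in the 6 AOM/DSS samples.

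As shares of the summed FPKM of the 10 genes, *Insl5* took 30.5% and *Pyy* 29.4% in Control and 28.5% and 27.5% in anti-A9 (means of 3 samples). In IgG, *Insl5* took 16.9% and *Pyy* 49.2%. That mean covered unlike samples: *Pyy* took 58.9%, 34.5% and 54.3% and *Insl5* 7.64%, 29.9% and 13.1% in IgG replicates 1 to 3. The *Insl5* share of IgG replicate 2 lay within the range of the other groups, whereas its *Pyy* share was above theirs and its *Chga* (8.69%) and *Chgb* (11.9%) shares were below theirs. Replicates 1 and 3 had the highest *Pyy* shares of the 9 samples. *Gcg* took 4.21% in Control and 7.77% in anti-A9, where its 3 values (6.65%, 7.57% and 9.09%) were above all 3 of Control (2.94% to 5.70%).

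**Figure D4:**
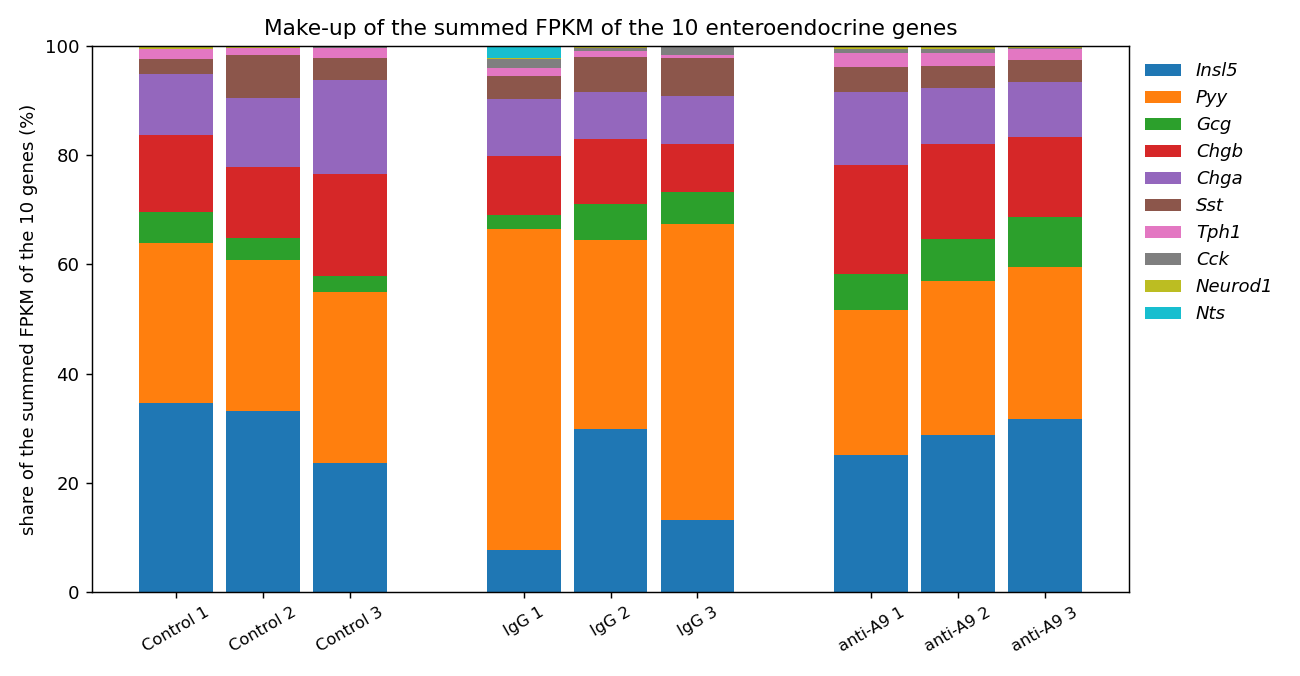
Share of each gene in the summed FPKM of the 10 genes (vertical axis, %), 1 bar per sample. Pyy takes 58.9% and 54.3% in IgG replicates 1 and 3 and 26.5% to 34.5% in the other 7 samples.

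The 8 genes other than *Cck* and *Nts* moved together across samples. Over the 9 samples the Pearson correlation of log2 values had a median of 0.826 over their 28 pairs and ran from 0.457 (*Pyy* with *Neurod1*) to 0.971 (*Chga* with *Chgb*). After group means were taken away, the 28 values ran from 0.74 to 0.984, so the genes also varied together among mice of a group. *Insl5* and *Gcg*, whose ratio was lower in both AOM/DSS groups than in Control, were at 0.972 within groups and 0.912 over all samples. For the 16 pairs of *Cck* or *Nts* with the 8 genes, the median was -0.229 and the lowest -0.825 (*Nts* with *Neurod1*). Within groups these genes parted: *Cck* correlated with each of the 8 between 0.408 and 0.721, and *Nts* between -0.566 and -0.317. These values describe 9 samples that share IgG replicate 1 as an extreme point, and they carry no test.

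Among 13064 other genes, those named here as most like the mean standardized profile of 9 of the genes (*Nts* was too low to enter) were *Nans* (r = 0.977 over 9 samples), *Acp5*, *Cldn14*, *Gstm2*, *Zg16*, *Trim72*, *Hsd11b2*, *Tff3* and *Spink1* (r = 0.957). *Zg16* and *Tff3* are secreted by goblet cells. *Zg16* was at 2746 to 4054 FPKM in Control, 164 to 3502 FPKM in IgG and 1753 to 2745 FPKM in anti-A9, with its lowest value in IgG replicate 1, as for the hormone genes.

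Transcription factors of the lineage were examined from a list of 19, of which 17 were tested. In IgG against Control, 7 were lower and 2 higher, with a median log2 change of -0.70 beside 0.09 for all genes. Without IgG replicate 1 the counts were 4 and 1. *Insm1* fell by 1.22 (adjusted p = 0.0564), *Nkx2-2* by 1.25 (0.0797), *Fev*, a factor of serotonin-producing cells, by 1.31 (0.0917) and *Etv1* by 1.13. None of these 4 was called without IgG replicate 1. *Isl1* rose by 1.21 (adjusted p above 0.05), with 0.98 and no call without that sample, and *Prox1* by 4.61 (adjusted p = 0.00512). *Prox1* was at 1.01, 0.801 and 0.479 FPKM in Control, 66.1, 10.8 and 11.5 FPKM in IgG and 3.28, 1.64 and 1.22 FPKM in anti-A9, against the direction of *Neurod1* in the same samples. It is also a factor of lymphatic endothelium. In anti-A9 against IgG, *Prox1* fell by 3.36 (adjusted p = 0.0157) and *Etv1* rose by 1.67 (adjusted p = 0.0236), with 2 of 17 higher and 1 lower in all. *Fev* was the 1 factor called in anti-A9 against Control, where it fell by 1.50 (adjusted p = 0.301).

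Of 21 genes of the secretory granule and of peptide processing, 8 were lower and 2 higher in IgG than in Control, with a median of -0.74. Without IgG replicate 1, 1 was lower and 1 higher. *Pcsk1n*, an inhibitor of prohormone convertase 1, was at 8.82, 10.9 and 20.9 FPKM in Control and 1.09, 4.58 and 8.61 FPKM in IgG and fell by 1.80 (adjusted p = 0.101), with -0.99 and no call without IgG replicate 1. *Rab3b*, a GTPase of regulated exocytosis, fell by 1.48 (adjusted p = 0.0432), and by 1.03 without that sample. *Scgn* fell by 1.61, *Resp18* by 1.61 and *Scg3* by 1.28, each with an adjusted p above 0.05, and none of these 3 was called without it. *Cadps*, which primes dense-core vesicles for release, rose instead by 3.02 (adjusted p = 0.00332), from 0.417, 0.695 and 0.459 FPKM in Control to 8.59, 4.79 and 2.80 FPKM in IgG. In anti-A9 against IgG, 4 of 21 were higher, with *Rab3b* up by 1.70 (adjusted p = 0.0216), and 2 were lower, with *Cadps* down by 2.63 (adjusted p = 0.00718). Without IgG replicate 1 the counts were 3 and 1. None of the 21 was called in anti-A9 against Control (limma).

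Beside *Tph1*, 8 genes of serotonin handling were tested. *Maob* and *Maoa*, which degrade monoamines, and *Slc6a4*, the serotonin transporter, were lower in IgG than in Control, by 2.28 (adjusted p = 0.019), 1.40 (0.0311) and 1.62 (0.134). All 3 were higher in anti-A9 than in IgG, by 2.23 (adjusted p = 0.0172), 1.32 (0.0278) and 1.69 (0.0898). Without IgG replicate 1, *Maob* was called in both comparisons and *Maoa* and *Slc6a4* in neither. *Slc18a1*, the vesicular monoamine transporter of endocrine cells, went the other way. It was at 1.88, 1.48 and 2.11 FPKM in Control, 35.1, 12.4 and 8.09 FPKM in IgG and 1.95, 1.14 and 0.902 FPKM in anti-A9, a rise of 3.01 (adjusted p = 0.00846) and a fall of 3.49 (adjusted p = 0.00586). *Slc18a1* thus moved opposite to *Tph1* and *Slc6a4* in the same samples.

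Other gut peptide hormones were low or mixed. Of 9 tested, 3 were lower in IgG than in Control. *Guca2a*, guanylin of surface colonocytes and goblet cells, was the most abundant, at 1817, 1671 and 2334 FPKM in Control, 94.1, 725 and 573 FPKM in IgG and 576, 479.8 and 841 FPKM in anti-A9, and fell by 2.50 (adjusted p = 0.0476), or by 1.58 without IgG replicate 1 (adjusted p = 0.0201). It was also lower in anti-A9 than in Control by 1.64 (adjusted p = 0.303), the 1 of 9 called there. *Nmu* fell by 1.64 in IgG (adjusted p = 0.161), with -1.07 and no call without that sample, and *Nmb* was lower in anti-A9 than in IgG by 1.36 (adjusted p = 0.0411), the 1 of 9 called in that comparison. *Tac1*, the precursor of substance P, was called as higher in IgG than in Control only in the fit without IgG replicate 1 (1.11, adjusted p = 0.0347) and was at 0.24 with it. *Gast* was listed at 0 in all 9 samples.

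Receptors for nutrients and metabolites, known as sensors of enteroendocrine cells, had a median of -0.53 in IgG minus Control and 0.53 in anti-A9 minus IgG. Without IgG replicate 1 these medians were -0.41 and 0.03. Of 10 tested, 1 was called in IgG against Control, *Hcar1*, a lactate receptor, which fell by 1.53 (adjusted p = 0.0183) and rose by 1.50 in anti-A9 against IgG (adjusted p = 0.0169). *Tas1r3*, a taste receptor subunit, was also called as lower in IgG than in Control without IgG replicate 1 (-1.07, adjusted p = 0.0429). None of the 10 was called in anti-A9 against Control (limma). Of 21 receptors for the hormones themselves, 5 were lower and 3 higher in IgG than in Control, and 7 were higher and 1 lower in anti-A9 than in IgG. At an adjusted p under 0.05, 1 was lower and 1 higher in the first comparison, and 2 were higher and 0 lower in the second. Of 20 tested without IgG replicate 1, 2 were lower and 2 higher in the first comparison and 3 higher and 1 lower in the second. The peptide YY family receptors diverged: *Npy4r* fell by 2.33 and then rose by 2.92 (adjusted p = 0.0256 and 0.0115), *Npy1r* fell by 1.55 and rose by 1.50, and *Npy2r* rose by 2.03 and fell by 2.01. *Npy4r* was at 2.51, 4.15 and 2.33 FPKM in Control, 0.181, 0.493 and 1.17 FPKM in IgG and 4.61, 6.10 and 3.04 FPKM in anti-A9. *Htr4*, a serotonin receptor, fell by 1.77 and rose by 1.90, and *Sstr1*, a somatostatin receptor, fell by 1.46 and rose by 1.44. *Npy4r* and *Npy2r* were called in both comparisons without IgG replicate 1 as well. *Npy1r* (-0.93 and 0.88) and *Sstr1* were then called in neither, and *Htr4* (-1.19 and 1.32) only in anti-A9 against IgG.

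**Figure D5:**
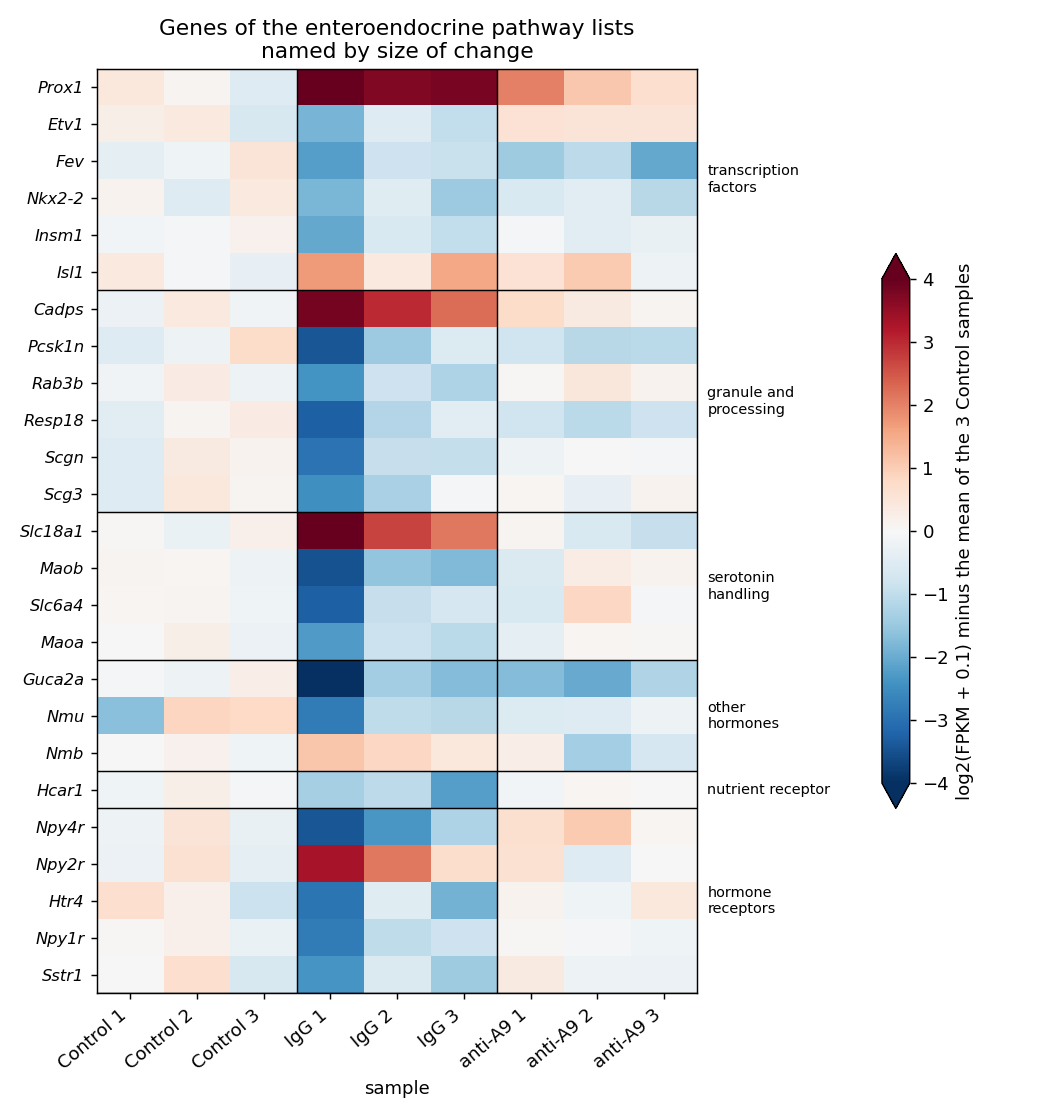
log2(FPKM + 0.1) minus the mean of the 3 Control samples (colour, red higher, blue lower, saturated at 4 in either direction) for pathway genes named by size of change, in rows by list, and the 9 samples in columns. Prox1, Cadps and Slc18a1 are red in all 3 IgG samples, where most other rows are blue, most deeply in IgG replicate 1.

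Of 12 factors of secretory fate and Notch signalling, 2 were higher in IgG than in Control and none was lower. *Sox4* rose by 2.78 (adjusted p = 0.00795) and *Tcf4* by 1.29 (adjusted p above 0.05). *Sox4* was called without IgG replicate 1 (2.19) and *Tcf4* was not (0.78). *Atoh1*, the factor that sets the secretory lineage, was at 30.9, 28.7 and 15.1 FPKM in Control, 3.42, 25.3 and 19.3 FPKM in IgG and 25.6, 27.0 and 21.3 FPKM in anti-A9, with a difference of -0.99 that was not called. *Neurog3* was at 1.68, 1.19 and 1.89 FPKM, at 0.182, 1.39 and 1.18 FPKM and at 1.09, 1.07 and 0.661 FPKM, a difference of -1.03 that was not called either. Both were lowest in IgG replicate 1, and without it the differences were -0.10 for *Atoh1* and -0.27 for *Neurog3*.

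Markers of other cell types moved with the same samples, and their part in the results was not tested. Colonocyte markers were lower in IgG than in Control for 7 of 9 (median -2.65) and higher for 1 (*Slc9a3*), also without IgG replicate 1, with sums of 3260 to 3654 FPKM in Control, 348 to 1346 FPKM in IgG and 1469 to 2842 FPKM in anti-A9. Goblet cell markers were lower for 1 of 9 and higher for 1 (1 and 3 without that sample), with sums of 9165 to 12743, 2142 to 17357 and 6459 to 8926 FPKM. Enteric neuron markers, from cells that share chromogranins and peptides with the endocrine lineage, were lower for 3 of 12 tested and higher for 1 in IgG, or 0 and 1 without IgG replicate 1. Their sums were 46.5 to 95.8 FPKM in Control, 19.2 to 104 FPKM in IgG and 63.9 to 80.6 FPKM in anti-A9, and of the 13 listed *Tubb3* was at 0 in every sample. In anti-A9 against IgG 7 of the 12 were higher and 1 lower, smooth muscle markers were higher for 5 of 7 and glial markers for 3 of 5. These counts were, without IgG replicate 1, 2 and 0 of 12, 2 of 7 and 1 of 5. Mast cell markers, which bear on *Tph1*, were mixed. In IgG against Control 3 of 12 were higher and 0 lower (1 was lower under median-of-ratios scaling), or 2 and 0 without IgG replicate 1. In anti-A9 against IgG 1 was higher and 5 lower, or 0 and 2 without that sample. Their sums were 23.3 to 74.5, 53.2 to 268 and 39.6 to 50.7 FPKM in Control, IgG and anti-A9. *Kit*, from this list, had its lowest mean in IgG, as *Tph1* did. It was at 7.88, 9.59 and 5.63 FPKM in Control, 2.55, 6.28 and 3.53 FPKM in IgG and 8.64, 7.01 and 8.67 FPKM in anti-A9. Of 7 tuft cell markers 1 was higher and 1 lower in IgG than in Control, or 2 and 0 without IgG replicate 1. Relative to the mean of the epithelial markers of each sample, 5 hormone genes were called as lower and 2 as higher in IgG than in Control, *Cck* (2.25) beside *Nts*, with *Neurod1* at -1.65 and *Tph1* at -1.49. Of all 15278 genes, 515 were lower and 1815 higher on that scale.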

How the data were processed

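RNA of the colorectum from 9 mice was sequenced on the Solexa platform after mirVana extraction, and only samples with an acceptable RNA integrity number were used. The authors deposited 1 table per mouse with 1 FPKM value per gene symbol. The submitters' processing notes name TopHat, Cufflinks, HTSeq, DESeq and the build GRCm38, without roles or versions, and the unit was read from the values, since the file headers do not state it. FPKM hides depth, so low values carry an unknown counting error. Repeated symbols among the 21544 rows were summed. The 15278 genes that reached 0.1 FPKM in 3 or more samples were tested on log2(FPKM + 0.1) with limma 3.58.1 (R 4.3.3), with an intensity trend and 1 fit of all 9 samples. p-values were adjusted by Benjamini-Hochberg. The call rule (unadjusted p under 0.05 and more than 2-fold) follows the study's methods. The fit was tested on simulated data with independent noise and, for each gene, the same spread in all groups. That setting lacks the wider spread of the IgG group, so it cannot show how the calls behave under it. Ratios were compared by exact permutation tests in scipy 1.17.1. Samples are labelled biological replicates, and which mice shared a cage is not given in the sources used here.

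The 10 genes and all gene lists were chosen with earlier results of these data known. Named genes were all 10, and from each other list at most 6 genes called in any comparison whose mean reached 1 FPKM in any group, by size of change, as well as the 10 genes most like the profile, of which 1 is not reported here. *Atoh1*, *Neurog3*, *Gast*, *Tac1*, *Tas1r3* and *Tubb3* are named outside this rule, after their values were seen. Alternatives were other pseudocounts, filters, scalings and samples in the fit, a replicate block, no trend and leaving out each sample. Promoters came from RefSeq (GRCm38.p6) and gene positions from GENCODE M21.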

Additional observations from a re-analysis of the deposited data

How the results depend on the processing

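Against Control, 6 of the 10 genes were called in IgG. The count was 3 when only the samples of these groups entered the fit, 2 at an adjusted p under 0.05, and 4 to 7 with 1 sample left out. Over all genes tested, 2081 were called, 1948 with only these groups, 1710 at an adjusted p under 0.05, and 1558 to 2539 with 1 sample left out. Against IgG, 3 were called in anti-A9, 0 with a pseudocount of 1, 1 at an adjusted p under 0.05, and 1 to 3 with 1 sample left out. The matching counts over all genes tested were 2447, 1342, 3219, and 1928 to 3091. Against Control, 0 were called in anti-A9, 4 with only these groups in the fit, and 0 to 4 with 1 sample left out. Over all genes tested these counts were 481, 540, and 254 to 806. The cause of these shifts was not tested. Signs turned without IgG replicate 1 for *Gcg* (0.42), *Pyy* (0.36) and *Sst* (0.35) in IgG minus Control and for *Chga* (-0.56), *Chgb* (-0.16), *Gcg* (-0.61) and *Insl5* (-0.39) in anti-A9 minus IgG. They also turned for *Sst* in anti-A9 minus IgG without IgG replicate 3 (0.39), and for *Gcg* in anti-A9 minus Control relative to epithelial markers (0.11). That scaling moved the median log2 change of all genes in IgG minus Control from 0.09 to 0.34, and the split of all called genes from 1288 higher and 793 lower to 1815 and 515. With 1 sample left out, IgG minus Control ran from -1.75 to 0.42 for *Gcg*, -1.20 to 0.36 for *Pyy* and -1.59 to 0.35 for *Sst*. Anti-A9 minus IgG ran from -0.56 to 0.93 for *Chga*, -0.16 to 1.31 for *Chgb*, -0.61 to 1.55 for *Gcg*, -0.39 to 1.79 for *Insl5* and -1.55 to 0.39 for *Sst*. Of 567 single-gene values under the alternatives, 9 changed sign. Many of the 567 could not. The replicate block, the fit without trend, the other filters and the fit of only the compared groups keep the same difference of means. So does leaving out a sample of the group not compared. The 9 of 567 is therefore no measure of how stable the signs are.

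Samples of the 3 groups share replicate numbers. Deviations of samples with the same number correlated between -0.187 and 0.249, above 0.1 in some pairs and under it in others. Such deviations sum to 0 within each group of 3. These values therefore cannot decide whether samples with the same number share more than that number. With a replicate block the counts of called genes were 6, 3 and 2 in IgG against Control, anti-A9 against IgG and anti-A9 against Control. Of all 15278 genes, 2114, 2437 and 533 were then called. The counts per gene list without IgG replicate 1 and under other scalings were chosen after seeing the data. Depth is unknown, which limits *Nts* and *Cck* most, both near or under 1 FPKM in most samples.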
